A study of Rattus norvegicus with 58 samples.

Results

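Transcripts of the caveolins and cavins, the coat proteins of caveolae, were followed across 7 doses of 4-methylcyclohexanemethanol in rat liver and kidney. The genes are Cav1, Cav2, Cavin1, Cavin2, Cavin3 and Ehd2, and every probe set that the platform annotation assigns to one of these symbols alone was taken. That gave 10 of 31099 probe sets, for 5 of 14217 named genes: 4 of Cav2, 3 of Cav1 and 1 each of Cavin2, Cavin3 and Ehd2. Cavin1 had 0 probe sets under that symbol in the annotation used here and is not described further. The set was chosen by a measured value, the low Cav2 level in liver at 500 mg/kg against the liver controls, so the values of these genes in dosed livers against those controls are given here as a description without a test, while other genes are tested in that contrast.

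Male Harlan Sprague-Dawley rats received the compound by gavage for 5 days at 0.1, 1, 10, 100, 300 or 500 mg/kg, and the control rats were the 0 mg/kg groups of the same study. Total RNA of liver or kidney was hybridised to an Affymetrix rat genome array, and no group carries a transgene or a second agent by the labels. The controls numbered 5 and every other dose group 4 in each organ, giving 29 arrays for liver, 29 for kidney and 58 in all. Replicates are biological by their titles, with no rat number, age or vehicle stated. Whether liver and kidney arrays came from the same rats is therefore not known.

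Values are log2 intensities summarised by RMA, which combines the probes of a set into a single number per array. Medians per array ranged from 5.26 to 5.32 for liver and from 5.33 to 5.38 for kidney, and the number of arrays limits the precision, as arrays have no read depth. The tissue labels were borne out by marker genes. All 9 measured hepatocyte markers were higher in the liver controls and all 9 measured proximal tubule markers were higher in the kidney controls (limma, adjusted p under 0.05), with albumin between 14.65 and 14.71 in liver.

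Caveolae are small flask-shaped pits of the plasma membrane that buffer membrane tension and hold signalling proteins and lipids, and they are known to be dense in endothelial cells, adipocytes, smooth muscle and fibroblasts. Caveolin-1 is the main structural protein, and caveolin-2 joins it in mixed oligomers and depends on it to leave the Golgi. Cavins form the outer coat over the caveolin layer, and the ATPase Ehd2 sits at the neck and holds the pit at the surface.

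Cav2 and Cav1 are neighbours on chromosome 4 of the rat assembly GRCr8, with 0 annotated genes between them, yet their liver values differed across dose. The 250 bases before the start of each, and of Cavin2, which was also lower in liver at 500 mg/kg, are therefore shown from RefSeq. Capitals mark matches to a TATA box (TATAAA), a GC box (GGGCGG), an AP-1 site (TGANTCA) or a CCAAT box (CCAAT), searched on both strands.
Cav2: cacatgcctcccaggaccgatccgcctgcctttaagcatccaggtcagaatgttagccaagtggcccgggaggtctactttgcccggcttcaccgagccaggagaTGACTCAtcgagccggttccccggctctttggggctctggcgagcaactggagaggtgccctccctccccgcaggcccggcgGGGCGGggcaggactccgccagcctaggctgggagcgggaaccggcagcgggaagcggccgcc
Cav1: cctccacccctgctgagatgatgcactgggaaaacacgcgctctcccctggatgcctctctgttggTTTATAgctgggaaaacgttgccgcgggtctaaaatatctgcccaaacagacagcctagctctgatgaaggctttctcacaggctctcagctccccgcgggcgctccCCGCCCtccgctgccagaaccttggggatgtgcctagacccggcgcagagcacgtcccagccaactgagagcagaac
Cavin2: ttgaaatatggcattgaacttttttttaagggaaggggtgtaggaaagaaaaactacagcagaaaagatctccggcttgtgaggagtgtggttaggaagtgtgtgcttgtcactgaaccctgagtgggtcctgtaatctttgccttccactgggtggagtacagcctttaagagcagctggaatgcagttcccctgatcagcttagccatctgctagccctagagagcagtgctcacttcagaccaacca
The Cav2 stretch is chr4:46582431-46582680 (plus strand), the Cav1 stretch chr4:46606288-46606537 (plus strand, the first of 2 annotated starts) and the Cavin2 stretch chr9:57806025-57806274 (minus strand). Cav2 holds AP-1 letters 145 bases and GC box letters 63 bases before its start. Cav1 holds TATA letters 184 bases and GC box letters 77 bases before its start, both read on the opposite strand. The Cavin2 stretch holds none of these letters. Of 33469 rat promoter stretches of this length, 12.9% hold the TATA letters, 30.5% the GC box letters, 6.34% the AP-1 letters and 34% the CCAAT letters, so the AP-1 letters are the least common of the 4; a match describes the sequence only.

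In liver, Cav2 was lower at 500 mg/kg on 3 of its 4 probe sets, Cavin2 was lower to a smaller degree, and Cav1, Cavin3 and Ehd2 overlapped their controls. In a whole organ, fewer cells of a type and less RNA per cell cannot be told apart. On the brightest Cav2 probe set in liver (1390800_a_at) the controls read 8.21, 7.81, 8.02, 8.03 and 8.13, and the arrays at 500 mg/kg read 6.98, 7.37, 7.14 and 7.29. Every array at 500 mg/kg lay below every control. The share of all genes whose groups lie apart in this way is not given here. The arrays at 0.1 mg/kg read 7.97, 8.19, 8.21 and 7.72, those at 1 mg/kg 8.17, 8.07, 8.14 and 7.81, and those at 10 mg/kg 7.95, 7.66, 8.14 and 7.85. At 100 mg/kg they read 7.94, 7.93, 7.78 and 7.79, and at 300 mg/kg 7.30, 8.13, 7.88 and 7.77. On this probe set the groups from 0 to 300 mg/kg overlapped each other throughout. A single array among the 25 outside the top dose, replicate 1 at 300 mg/kg, lay below the highest array at 500 mg/kg.

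The group mean of this probe set was 8.04 ± 0.15 (SD, n = 5) in the controls, 7.77 ± 0.35 (n = 4) at 300 mg/kg and 7.19 ± 0.17 (n = 4) at 500 mg/kg. Against the controls the log2 difference was -0.02 at 0.1 mg/kg, 0.01 at 1 mg/kg, -0.14 at 10 mg/kg, -0.18 at 100 mg/kg and -0.27 at 300 mg/kg, and -0.85 at 500 mg/kg (SE 0.13), which is 0.556 times the control level. These differences share the same 5 controls. Over all genes, 0.958% passed the test at 500 mg/kg (108 of 11275, of which 0.47% were lower), and nothing is read from the Cav2 value against that share because that contrast chose the gene.

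**Figure D1:**
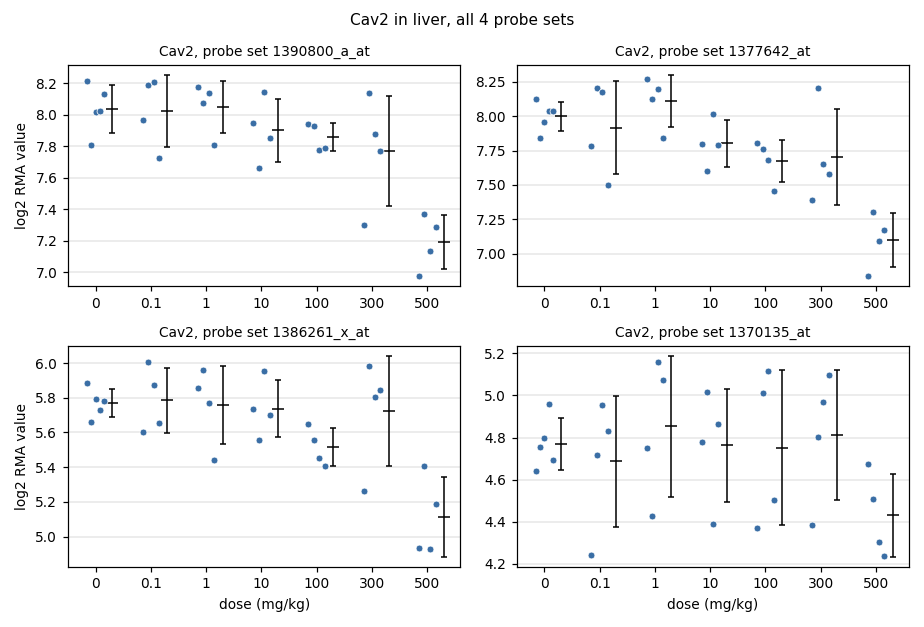
The 4 Cav2 probe sets in liver, with log2 RMA value against dose in mg/kg; points are arrays (5 controls, 4 at each other dose) and bars beside them are mean and SD. In 1390800_a_at the arrays at 500 mg/kg lie between 6.98 and 7.37, below all controls, while 1370135_at overlaps its controls.

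The other Cav2 probe sets were compared with it. Probe set 1377642_at, designed from the same expressed sequence tag as 1390800_a_at, read 8.12, 7.84, 7.96, 8.04 and 8.04 in the controls and 6.84, 7.30, 7.10 and 7.17 at 500 mg/kg. All 4 arrays at 500 mg/kg were below all 25 other liver arrays, the lowest of which was 7.39. Probe set 1386261_x_at, whose suffix marks probes that may also match other transcripts, read 5.88, 5.66, 5.79, 5.73 and 5.78 in the controls and 4.93, 5.41, 4.93 and 5.19 at 500 mg/kg. Again no control reached down to the top dose group, and 1 of the other 25 arrays lay below its highest value. On both of these probe sets the arrays at 100 mg/kg also lay below every control. They read 7.46 to 7.81 on 1377642_at, a difference of -0.32 (SE 0.14), and 5.41 to 5.65 on 1386261_x_at, a difference of -0.25 (SE 0.13). How common such gaps are among all probe sets, at 100 or at 500 mg/kg, is not given here. Nothing is read from them, as the gene was chosen for its low level at 500 mg/kg against these controls.

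Probe set 1370135_at, designed from the RefSeq transcript, read 4.64, 4.75, 4.80, 4.96 and 4.69 in the controls and 4.67, 4.51, 4.31 and 4.24 at 500 mg/kg. It overlapped: 7 of the 25 other arrays were below the highest top-dose value, and the probe set was dim in liver, above the filter level on 18 of 29 arrays. The differences at 500 mg/kg were -0.90 (SE 0.14) for 1377642_at, -0.66 (SE 0.13) for 1386261_x_at and -0.34 (SE 0.18) for 1370135_at. Probe sets of a gene are not replicates, and these values share the same 9 arrays.

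Array by array within dose groups, the 3 brighter Cav2 probe sets moved together in liver and the dim one did not. The Pearson r of deviations from group means over 29 arrays, given as a description, was 0.91 between 1377642_at and 1390800_a_at, 0.89 between 1386261_x_at and 1390800_a_at and 0.81 between 1377642_at and 1386261_x_at. It was between -0.05 and -0.02 for 1370135_at with the other 3.

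Cav1, the partner of Cav2, was not lower in the same way. Its brightest probe set (1372111_at) read 5.94, 5.95, 6.35, 5.81 and 6.02 in the liver controls and 5.95, 5.94, 6.08 and 5.25 at 500 mg/kg. A single top-dose array was low, and the other 3 lay within the controls. The difference at 500 mg/kg was -0.21 (SE 0.19), less than at 1 mg/kg, where it was -0.44 (SE 0.19) and the arrays read 5.99, 5.24, 5.59 and 5.49. At 0.1 mg/kg the difference was -0.34 and at 100 mg/kg -0.29, so on this probe set these lower doses were also farther from the controls than the top dose.

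The other Cav1 probe sets were dim in liver. Probe set 1393281_at was above the filter level on 5 of 29 arrays and differed by 0.16 (SE 0.20) at 500 mg/kg, and 1370131_at was above it on 0 of 29 arrays, ranged from 2.94 to 4.02 and was left out of the liver fits. All 10 probe sets passed that filter in kidney and 9 of 10 in liver.

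Cavin2, a cavin that binds phosphatidylserine and helps shape the membrane, read 6.99, 6.86, 7.03, 7.0 and 7.11 in the liver controls and 6.64, 6.59, 6.81 and 6.49 at 500 mg/kg. The top-dose arrays lay below every control, and how common such a gap is among all genes is not given here. Its difference was -0.08 at 0.1 mg/kg, -0.18 at 1 mg/kg, -0.11 at 10 mg/kg, -0.28 at 100 mg/kg, -0.20 at 300 mg/kg and -0.36 at 500 mg/kg (SE 0.08). The arrays at 100 mg/kg, which read 6.66, 6.70, 6.78 and 6.75, were also below every control, while 10 of the 25 arrays outside the top dose were below its highest value.

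Cavin3, a cavin known to bind protein kinase C delta, read 11.29, 11.34, 11.37, 11.19 and 11.38 in the liver controls and 11.48, 10.66, 11.37 and 11.50 at 500 mg/kg. The second replicate was low, the third lay within the control range and the others were above it, and the difference was -0.06 (SE 0.14). Ehd2 read 5.42, 5.15, 5.42, 5.49 and 5.42 in the controls and 5.37, 5.63, 5.46 and 4.93 at 500 mg/kg, a difference of -0.03 with groups that overlapped.

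**Figure D2:**
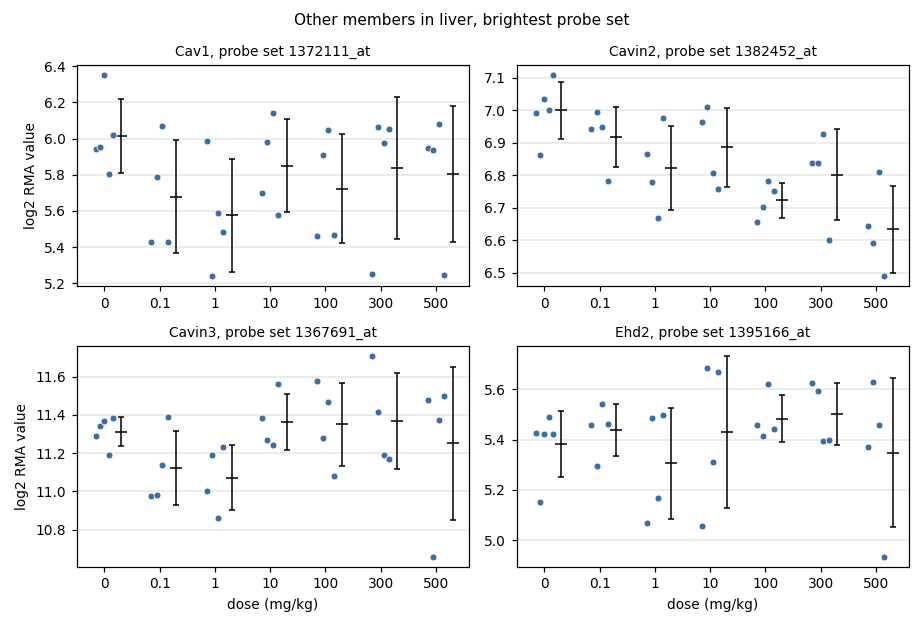
Cav1, Cavin2, Cavin3 and Ehd2 in liver, brightest probe set, with log2 RMA value against dose in mg/kg; points are arrays and bars are mean and SD. The Cavin2 arrays at 500 mg/kg lie between 6.49 and 6.81, below the controls (6.86 to 7.11), and the other genes overlap their controls.

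A comparison that used neither the liver controls nor the 500 mg/kg arrays set the 4 liver arrays at 300 mg/kg against the mean of the 0.1, 1, 10 and 100 mg/kg groups. None of the 5 genes passed (limma, Benjamini-Hochberg adjusted p under 0.05), and 0 of 5 had an unadjusted p under 0.05. Over all genes the share called was 0.071% (8 of 11275), with 1267 at an unadjusted p under 0.05. Cav2 differed by -0.19 (SE 0.11, 95% interval -0.41 to 0.04, adjusted p = 0.548). Without replicate 1 at 300 mg/kg, the array at 7.30, this value was -0.03, so most of it sat on 1 array.

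For the other genes the same comparison gave 0.13 for Cav1 (adjusted p = 0.799), 0.14 for Cavin3 (adjusted p = 0.672), -0.04 for Cavin2 (adjusted p = 0.881) and 0.09 for Ehd2 (adjusted p = 0.795). Leaving out 1 array at a time moved Cav1 between 0.05 (without replicate 2 at 300 mg/kg) and 0.32 (without replicate 1) and Cavin3 between 0.03 (without replicate 1) and 0.21 (without replicate 4). Among all probe sets, Cav2 gave -0.17 on 1377642_at (adjusted p = 0.615), 0.03 on 1386261_x_at (adjusted p = 0.955) and 0.05 on 1370135_at (adjusted p = 0.935). The share called over all probe sets was 0.0799%. The interval of Cav2 reaches -0.41, so a shift of that size at 300 mg/kg could not be told from none with these arrays.

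The liver lists of other caveola genes and of caveola-bearing cells were set beside these values. Of 21 listed caveola accessory genes 17 were tested, and 0 passed at 500 mg/kg, with 3 at an unadjusted p under 0.05, beside 1569 of the 11275 genes tested, and a median difference of 0.10 beside 0.01 for all genes. The smallest p belonged to Pacsin3, which bends membranes, at 0.33 (adjusted p = 0.125), then to its paralog Pacsin2 at 0.20 (adjusted p = 0.241) and to the prostacyclin synthase Ptgis at 0.33 (adjusted p = 0.259). At 300 mg/kg against the lower doses 0 of 17 passed, with 1 at an unadjusted p under 0.05, and the median was 0.01. There the dynamin Dnm2, which cuts vesicles at their neck, had the smallest p, at 0.23 (adjusted p = 0.158).

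Of 24 endothelial markers 19 were tested in liver and 0 passed at 500 mg/kg, with 3 at an unadjusted p under 0.05, beside 1569 of all 11275 genes. Of these markers 15 were below 0 and the median was -0.08. The receptor Tie1 differed by -0.36 (adjusted p = 0.125), Emcn by -0.25 (adjusted p = 0.216) and Esam by -0.14 (adjusted p = 0.320). The mean of the list lay between 7.39 and 7.51 on the control arrays and between 7.29 and 7.42 on those at 500 mg/kg, ranges that overlap. It was as low at 300 mg/kg (7.28 to 7.41), where 15 markers were below 0 against the controls and the median was -0.145. Against the 0.1 to 100 mg/kg groups that median was -0.12 and 0 passed. There 5 markers had an unadjusted p under 0.05, beside 1267 of all 11275 genes.

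Most markers of macrophages and of stellate and related cells were also below the controls at 500 mg/kg, though none passed the test. Over all genes 1569 of 11275 had an unadjusted p under 0.05, and the median difference was 0.01. Of 13 macrophage markers 11 were tested and 0 passed, with 9 at an unadjusted p under 0.05, and 10 were below 0 with a median of -0.26. The receptor Csf1r differed by -0.25 (adjusted p = 0.084), the complement gene C1qa by -0.29 (adjusted p = 0.091) and Adgre1 by -0.43 (adjusted p = 0.091), and the list mean lay between 8.34 and 8.76 at 500 mg/kg and between 8.63 and 8.85 on the controls. Of 17 stellate, fibroblast and pericyte markers 15 were tested and 0 passed, with 6 at an unadjusted p under 0.05, and 12 were below 0 with a median of -0.20. The collagen cross-linking enzyme Lox differed by -1.68 (adjusted p = 0.176), Hgf by -0.43 (adjusted p = 0.229) and Col1a2 by -0.42 (adjusted p = 0.189). That list mean did not overlap between the controls (7.01 to 7.35) and 500 mg/kg (6.69 to 6.94), with no share over other gene lists to set beside it. The part of the endothelial, macrophage and stellate markers in the Cav2 and Cavin2 values was not tested.

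Of 9 tested hepatocyte markers 1 passed higher at 500 mg/kg, the tyrosine aminotransferase Tat at 1.39 (adjusted p = 0.019). The apolipoprotein Apoa1 passed lower at -0.30 (adjusted p = 0.024). Over all genes 0.958% passed (108 of 11275). An unadjusted p under 0.05 was found for 5 of the 9, beside 1569 of all 11275 genes. Of the 9 markers 6 were below 0, with a median of -0.04. Smooth muscle means overlapped (6.29 to 6.49 on the controls and 6.20 to 6.44 at 500 mg/kg). Of 14 adipocyte markers 10 were tested and 0 passed, with 6 at an unadjusted p under 0.05, beside 1569 of all 11275 genes. These markers were split, with 5 above and 5 below 0 and a median of 0.09.

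In kidney, none of the 5 genes passed against the kidney controls at any of the 6 doses, and the higher values at 300 and 500 mg/kg came from 1 array in each group. Cav1 read 7.35, 7.34, 10.23 and 7.51 at 300 mg/kg and 7.58, 7.54, 9.34 and 7.64 at 500 mg/kg, against 7.89, 7.34, 7.66, 7.58 and 7.32 in the controls. Replicate 3 stood apart in both groups while the other 6 arrays lay within the control range. The differences were 0.55 at 300 mg/kg (SE 0.39, 95% interval -0.25 to 1.35, limma adjusted p = 0.890) and 0.47 at 500 mg/kg (95% interval -0.34 to 1.27, adjusted p = 0.737).

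Cav2 in kidney (1377642_at, its brightest set there) read 8.40, 8.15, 9.15 and 8.33 at 300 mg/kg and 8.49, 8.15, 8.99 and 8.51 at 500 mg/kg, against 8.61, 8.42, 8.16, 8.34 and 8.46 in the controls. Here too replicate 3 was the highest array of both groups. The difference was 0.11 at 300 mg/kg (adjusted p = 0.966) and 0.14 at 500 mg/kg (adjusted p = 0.835). The other Cav2 probe sets differed in size, and at 300 mg/kg in sign. At 300 mg/kg they gave -0.08 on 1370135_at, 0.06 on 1386261_x_at and 0.17 on 1390800_a_at. At 500 mg/kg they gave 0.08, 0.31 (SE 0.18) and 0.13 in that order, and none passed at either dose. The liver pattern of a lower top dose group was not seen, and the kidney value at 500 mg/kg was above 0.

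Cavin2 read 6.91, 6.79, 7.88 and 7.02 at 300 mg/kg and 7.09, 6.87, 7.58 and 6.92 at 500 mg/kg, against 6.95, 7.13, 6.82, 6.83 and 6.94 in the controls. It differed by 0.22 (adjusted p = 0.892) and 0.18 (adjusted p = 0.763). Ehd2 read 5.42, 5.50, 6.52 and 5.57 at 300 mg/kg and 5.35, 5.54, 5.94 and 5.30 at 500 mg/kg, with controls between 5.46 and 5.61. Its difference was 0.22 at 300 mg/kg (adjusted p = 0.889) and 0.003 at 500 mg/kg (adjusted p = 0.997). Cavin3 lay between 7.70 and 8.33 in those groups and between 7.66 and 8.24 in the controls, and differed by 0.14 and 0.003 (adjusted p = 0.896 and 0.995).

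At 300 and at 500 mg/kg the share of all genes called was 0.0268% (3 of 11204 each), with 643 and 1073 at an unadjusted p under 0.05. At the 4 lower doses the 5 genes differed by between -0.19 and 0.07, with 0 of 11204 genes called, 0%, in each comparison and 912, 1045, 703 and 539 at an unadjusted p under 0.05 at 0.1, 1, 10 and 100 mg/kg. For the 5 genes, 0 had an unadjusted p under 0.05 at any kidney dose. A trend over the dose rank gave 0.09 per step for Cav1 (SE 0.05, adjusted p = 0.593) and 0.02 for Cav2 (adjusted p = 0.848), with 0 of 5 genes called beside 0.152% of all genes (17 of 11204). The trend of Cavin2 was 0.02, of Cavin3 0.01 and of Ehd2 0.02 per step.

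**Figure D3:**
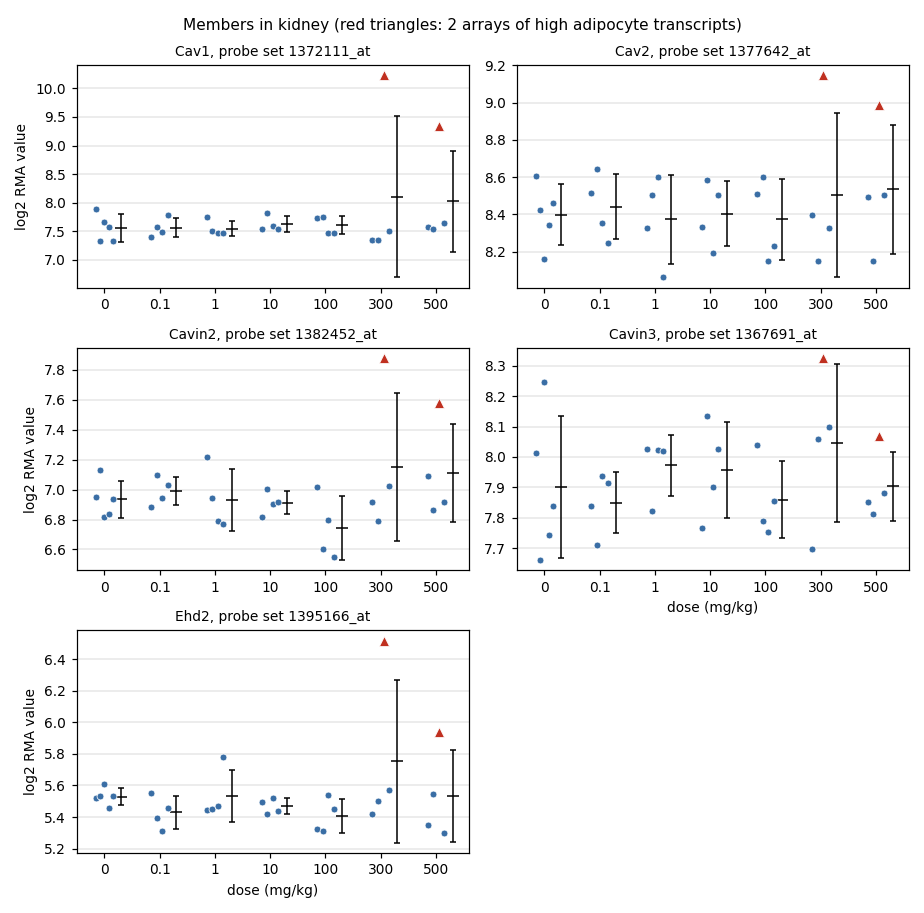
The 5 genes in kidney, brightest probe set, with log2 RMA value against dose in mg/kg; points are arrays, bars are mean and SD, and red triangles are replicate 3 at 300 and at 500 mg/kg. The triangles of Cav1, at 10.23 and 9.34, lie above the other 27 arrays (7.32 to 7.89).

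The same 2 kidney arrays carried high levels of adipocyte transcripts. The mean over the 11 measured of 14 listed adipocyte markers was 10.71 on replicate 3 at 300 mg/kg and 9.70 on replicate 3 at 500 mg/kg, and between 5.60 and 6.58 on the other 27 arrays. The fatty acid carrier Fabp4 read 13.34 and 12.44 there (5.28 to 8.36 on the others) and the hormone gene Adipoq 10.03 and 8.83 (4.42 to 6.17). Ucp1, the uncoupling protein of brown fat, read 13.80 and 12.41 (4.27 to 7.34) and Cidea, a lipid droplet protein of such fat, 12.75 and 12.06 (4.85 to 6.53). Lipe stood out far less, at 7.60 and 7.45 (6.94 to 7.57), and on the second array it lay within the range of the others.

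All 3 Cav1 probe sets were high on these arrays: 1393281_at read 8.62 and 7.74 (5.44 to 6.19 on the other 27) and 1370131_at 7.32 and 6.47 (4.00 to 5.20). The Cav2 probe sets were higher by less: 1390800_a_at read 9.33 and 9.01 (8.02 to 8.69) and 1370135_at 6.06 and 5.99 (5.09 to 5.92), while 1386261_x_at, at 5.99 and 6.69 (5.45 to 6.09), stood out on the second array alone. Cavin2 was above the other arrays on both (6.55 to 7.22 on the others), as was Ehd2 (5.30 to 5.78). Cavin3 was above them on the first array and within their range (7.66 to 8.24) on the second.

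Without both arrays the kidney differences of Cav1 were -0.16 (SE 0.11) at 300 mg/kg and 0.03 (SE 0.11) at 500 mg/kg. Those of Cav2 were -0.11 and -0.02, those of Cavin2 -0.02 and 0.02, those of Cavin3 0.05 and -0.05, and those of Ehd2 -0.03 and -0.13. None passed the test, and every value at 300 mg/kg except that of Cavin3 had changed sign. The trend over dose rank without them was between -0.015 and -0.0016 for the 5 genes, with 0 genes called in place of 17.

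**Figure D4:**
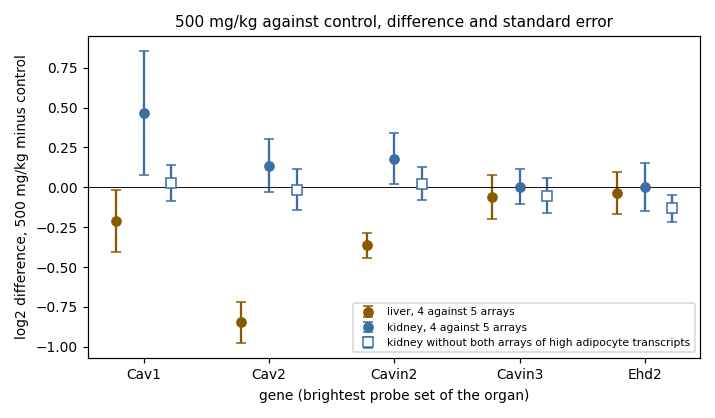
Log2 difference at 500 mg/kg minus control for the 5 genes, with the standard error of the fit as bars, in liver, in kidney and in kidney without both arrays of high adipocyte transcripts. Cav2 in liver lies at -0.85, and Cav1 in kidney is 0.47 with and 0.03 without the arrays.

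The kidney accessory genes gave no call either: 0 of 17 passed at 300 mg/kg and at 500 mg/kg, with 0 at an unadjusted p under 0.05 in each, and the medians were 0.06 and 0.05. At 300 mg/kg the smallest p belonged to Flot1 (0.12, adjusted p = 0.841), Lipe (0.17, adjusted p = 0.841) and the fatty acid transporter Cd36 (0.97, SE 0.56, adjusted p = 0.849). The endothelial list mean lay between 7.25 and 7.43 at 300 mg/kg, between 7.33 and 7.46 at 500 mg/kg and between 7.27 and 7.41 in the controls. These ranges over whole dose groups overlapped the controls, and the part of endothelial transcripts in the high Cav1 values was not tested.

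Whether the dose effect differed between organs was tested on the liver minus kidney difference of 300 mg/kg against the 0.1 to 100 mg/kg groups, which leaves out all controls and the top dose. None of the 5 genes passed and 0 had an unadjusted p under 0.05, beside 0.075% of all genes (8 of 10673). Cav2 gave -0.38 on 1390800_a_at (95% interval -0.76 to 0.01, limma adjusted p = 0.616). Its other probe sets gave -0.28 on 1377642_at, 0.002 on 1386261_x_at and 0.11 on 1370135_at, and none passed. Cav1 gave -0.39 (adjusted p = 0.845), Cavin2 -0.29 (adjusted p = 0.625), Ehd2 -0.20 (adjusted p = 0.813) and Cavin3 0.01 (adjusted p = 0.995). Without both kidney arrays of high adipocyte transcripts the value of Cav2 on 1390800_a_at was -0.11, that of Cavin2 -0.05, and that of Cav1 turned to 0.31.

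Between the untreated organs, Cavin3 was far higher in liver, Cav1 was lower in liver, and Cavin2 and Ehd2 did not pass the test. Leaving out Cav2, which is described without a test on these arrays, the organ difference passed for 2 of the 4 genes, beside 77.2% of all genes (9107 of 11801), so the count itself is no result about these genes. Cavin3 read between 11.19 and 11.38 on the liver controls and 8.01, 7.66, 8.24, 7.74 and 7.84 on the kidney controls. The groups lay far apart, with a log2 difference of 3.41 (SE 0.12, 95% interval 3.17 to 3.66) or 10.6-fold (limma adjusted p = 1.46e-30). Kidney control replicate 2 carried hepatocyte transcripts (list mean 8.72, 6.10 to 6.82 on the other kidney controls), and its Cavin3 value of 7.66 was the lowest of the kidney controls.

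Cav1 read between 5.81 and 6.35 on the liver controls and between 7.32 and 7.89 on the kidney controls, also without overlap. Liver was lower by a log2 difference of -1.54 (SE 0.30, adjusted p = 9.83e-06), 0.343 times the kidney level. Its other probe sets gave -1.88 (1393281_at, adjusted p = 6.13e-07) and -0.97 (1370131_at, adjusted p = 0.006), both lower in liver as well, in a fit over all probe sets where 73.9% were called. The SE of Cav1 was 0.15 when both kidney arrays of high adipocyte transcripts were left out of the fit.

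Cav2 on 1390800_a_at read 8.21, 7.81, 8.02, 8.03 and 8.13 on the liver controls and 8.65, 8.28, 8.19, 8.40 and 8.35 on the kidney controls, which overlap by 1 liver array. The difference was -0.33 (SE 0.15) on 1390800_a_at, -0.78 on 1370135_at, -0.40 on 1377642_at and 0.06 on 1386261_x_at. These liver controls are the arrays against which Cav2 was chosen, so the values are given without a test. With the 0.1 to 100 mg/kg groups of both organs in place of the controls, liver was lower by -0.39 on 1390800_a_at (limma adjusted p = 4.4e-05). The other Cav2 probe sets were not tested in this way. On 1386261_x_at the group means at these doses overlapped, at 5.52 to 5.78 in liver and 5.73 to 5.76 in kidney. The control difference on 1390800_a_at lay between -0.38 and -0.26 with 1 control array left out. It was -0.19 after quantile normalization over all 58 arrays, its smallest size among the alternatives run. The 0.1 to 100 mg/kg value was not recomputed with that normalization.

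Cavin2 differed between organs by 0.06 (95% interval -0.18 to 0.31, adjusted p = 0.635) and Ehd2 by -0.15 (adjusted p = 0.314). Of 18 tested accessory genes 9 passed as higher and 7 as lower in liver, beside 77.2% of all genes called (9107 of 11801). With so large a share called, the count is not read as a result about these genes. Pacsin2 was lower in liver by a log2 difference of -1.41 (adjusted p = 2.54e-25), its paralog Pacsin3 higher by 1.70 (adjusted p = 2.60e-23), and Ehd1, a relative of Ehd2 at recycling endosomes, lower by -1.09 (adjusted p = 3.96e-21). The sources used here do not say if RMA was run on both organs at once.

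**Figure D5:**
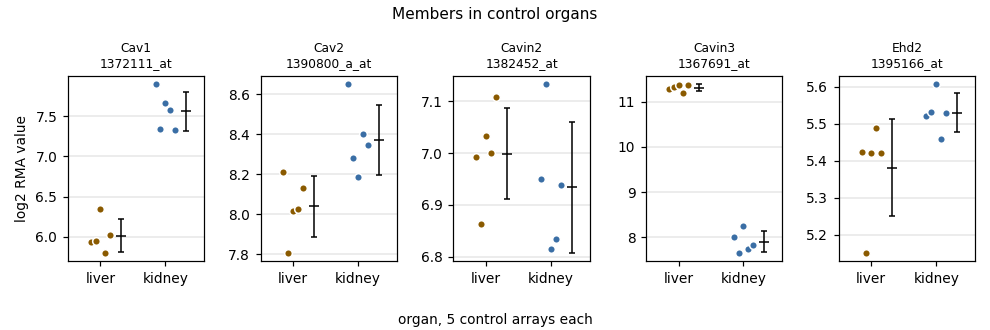
Log2 RMA value of the 5 genes on the 5 liver and 5 kidney control arrays, with mean and SD as bars and a separate scale for each gene. Cavin3 lies above 11.1 in liver and below 8.3 in kidney, and Cav1 is the reverse, below 6.4 in liver and above 7.3 in kidney.

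Within dose groups the 5 genes did not vary as a unit in liver. The Pearson r of deviations from group means over 29 liver arrays, given as a description, was 0.41 for Cav1 with Cav2 (0.34 without the 2 farthest arrays), -0.45 for Cav2 with Cavin3 and -0.05 for Cav2 with Cavin2. The value near 0 for Cav2 with Cavin2, the 2 genes lower at the top dose, describes no common movement from array to array within groups. In kidney without both arrays of high adipocyte transcripts (27 arrays) it was 0.21 for Cav1 with Cav2, 0.30 for Cav1 with Cavin2 and -0.67 for Cav2 with Ehd2. These arrays share their processing, and no p is given.

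The genes whose within-group deviations were most like those of Cav2 were listed in each organ for its brightest Cav2 probe set. That set was 1390800_a_at in liver and 1377642_at in kidney. The lists shared no gene, but as they follow different probe sets this is not read as a difference between organs. In liver, among 11274 other genes over 29 arrays, the genes most like Cav2 were Abi3 (r = 0.77), Eny2 (r = 0.74), Wdtc1 (r = 0.74), Efhd2 (r = 0.73) and Smagp (r = 0.69). In kidney over 29 arrays they were Usp33 (r = 0.85), Sh3kbp1 (r = 0.83), Kgd4 (r = 0.83), Rpe (r = 0.83) and Mtch2 (r = 0.82), and without both arrays of high adipocyte transcripts Usp33 (r = 0.80), Micu3 (r = 0.80), Hook1 (r = 0.78), Reps2 (r = 0.78) and Rcn2 (r = 0.78). No member of the caveolins and cavins was among these.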

How the data were processed

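The authors deposited log2 values, 1 for each probe set on each array, made with RMA, per the submitters' processing notes; no version is named, and the scale was read from the values (1.75 to 14.85, 0 missing). Groups came from the sample titles, and 0 sample columns were left unmapped. Gene names came from the platform annotation; sets with several symbols (436) or none (9780) stayed unnamed, and the gene identifiers of 20764 probe sets were found in the table of assembly GRCr8.

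Within an organ, probe sets were tested if 4 or more arrays placed them above the array's 40th percentile, and the brightest set stood for a gene. limma 3.58.1 under R 4.3.3 (lmFit, eBayes with an intensity trend) was fitted per organ over 29 arrays with 7 groups, or over 58 arrays with 14 groups for comparisons of organs. Calls are Benjamini-Hochberg adjusted p under 0.05 over all genes, two-sided; differences are of group means on the log2 scale, and intervals are 95%. The p-values measure the spread between these arrays. The scripts were tested on simulated data with 200 changed genes.

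The members and lists were chosen with earlier results of these data known. Text names the members, per list the up to 3 genes of smallest p in the comparison spoken of, and the 5 genes most like Cav2. The adipocyte genes given for the kidney arrays of high adipocyte transcripts are examples outside this rule. Alternatives were quantile normalization, array weights, filters, all probe sets, mean over probe sets, replicate block, linear dose, only the groups compared, the 0.1 to 100 mg/kg groups in place of controls, and leaving out arrays.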

Additional observations from a re-analysis of the deposited data

Results flagged for a closer look

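The brightest probe set of 5 genes was checked in 14 groups. In 10 of these 70 groups a single array stood apart by a gap test on the group's range. By chance the test flags about 1 in 20. The share over all probe sets of these arrays is not given here and the genes share arrays, so the count is not read as an excess. The gap is given as a share of the group's whole range. In kidney, Cav1 replicate 3 at 300 mg/kg (10.23, gap 0.941) and at 500 mg/kg (9.34, gap 0.944) and Ehd2 replicate 3 at 300 mg/kg (6.52, gap 0.864) were high, on the arrays of high adipocyte transcripts. Also in kidney at 1 mg/kg, Cav1 replicate 1 (7.75, gap 0.869) and Ehd2 replicate 4 (5.78, gap 0.925) were high and Cavin3 replicate 2 (7.82, gap 0.966) was low. In liver, Cav1 was low on replicate 1 at 300 mg/kg (5.25, gap 0.894) and on replicate 4 at 500 mg/kg (5.25, gap 0.83), Cavin3 was low on replicate 2 at 500 mg/kg (10.66, gap 0.85), and Ehd2 was low on control replicate 2 (5.15, gap 0.795).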

How the results depend on the processing

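The number of members called was 0 under every alternative run of the liver 300 mg/kg, kidney and organ-by-dose comparisons, and 2 or 3 between organs with Cav2 counted. Signs changed only among differences that did not pass. Without both kidney arrays of high adipocyte transcripts, the kidney 300 mg/kg values became -0.157 for Cav1, -0.106 for Cav2, -0.024 for Cavin2 and -0.033 for Ehd2, those at 500 mg/kg -0.015 for Cav2, -0.052 for Cavin3 and -0.132 for Ehd2, the trends -0.0046 for Cav1, -0.012 for Cav2, -0.013 for Cavin2, -0.0016 for Cavin3 and -0.015 for Ehd2, and the organ-by-dose values 0.314 for Cav1 and 0.051 for Ehd2. Array weights gave -0.016 for Cav2 at 300 mg/kg and -0.061 for Ehd2 at 500 mg/kg in kidney. Quantile normalization gave -0.015 for Cavin3 and -0.0086 for Ehd2 at 500 mg/kg in kidney, 0.0046 for Cavin2 at 300 mg/kg in liver and -0.020 for Cavin3 in the organ-by-dose test. With the 0.1 to 100 mg/kg groups in place of controls, Cavin2 differed between organs by -0.057. The cause of these changes was not tested.

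Leaving out 1 array at a time, the value ran from -0.077 to 0.031 for Cavin2 at 300 mg/kg in liver. In kidney at 300 mg/kg it ran from -0.157 to 0.804 for Cav1, -0.106 to 0.226 for Cav2, -0.024 to 0.338 for Cavin2 and -0.033 to 0.333 for Ehd2, and at 500 mg/kg from -0.015 to 0.264 for Cav2, -0.057 to 0.089 for Cavin3 and -0.132 to 0.080 for Ehd2. The trend of Ehd2 ran from -0.00083 to 0.025. Organ-by-dose values ran from -0.647 to 0.314 for Cav1, -0.108 to 0.102 for Cavin3 and -0.315 to 0.051 for Ehd2.

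Counts over all genes moved more: alternatives gave 3 to 16 genes at 300 mg/kg in liver (8 reported), 0 to 4 and 0 to 69 at 300 and 500 mg/kg in kidney (3 each), 0 to 185 for the trend (17) and 1 to 9 for the organ-by-dose test (8). Leaving out 1 array gave 1 to 20, 0 to 1, 2 to 34, 0 to 54 and 1 to 9 in that order. The replicate block gave 4, 1, 2, 6 and 7 in the same order, 9089 in place of 9107 between organs, and -0.012 for Cavin3 at 500 mg/kg in kidney, and it changed no member's call. Within an organ, replicate numbers did not pair the arrays. Same-numbered arrays correlated at a mean of -0.007 in liver and 0.030 in kidney, and 6 and 10 of 29 arrays correlated best with their own number. Liver and kidney arrays of the same dose and number were not compared in this check, so it cannot show pairing between organs. The main fits for comparisons of organs treated all arrays as independent. The stricter filter left no value for Ehd2 within an organ.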
